A study of Mus musculus with 12 samples.

Results

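Cytosolic ribosomal protein genes were taken from the expression table by symbol. A symbol was kept where it starts with Rpl or Rps followed by a digit, or is Rplp0, Rplp1 or Rplp2. Names holding -ps or -rs, which mark pseudogenes and related sequences (198 symbols), and the Rps6k kinases (10 symbols) were left out. The rule found 92 genes among 32416 symbols. Of these, 76 are the usual ribosomal protein genes, 46 of the large and 30 of the small subunit. The other 16 are tissue-restricted or duplicated copies and binding partners that carry a ribosomal protein name, a split made after the symbols had been read.

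The 12 libraries came from whole subcutaneous tumours of B16, a mouse melanoma line, grown in C57BL/6 mice. The tumour cells carried either a construct for over-expression of Aoah, which encodes the lipase acyloxyacyl hydrolase, or the empty Vector. In the B16mhgp100 model, 4 Aoah and 4 Vector tumours were taken from mice given anti-PD1 from day 10. In the B16F10 model, 2 Aoah and 2 Vector tumours came from mice given anti-PD1 with anti-CTLA4 from day 6. Both antibodies block checkpoint receptors of T cells, each was given at 200 µg a dose, with 4 doses at 2 per week, and the harvest was 1 day after the last dose. Every group was treated, and the model, the antibodies and the first day change together, so they cannot be told apart. The sources do not state whether the lines are clones, which promoter drives Aoah, or whether each tumour came from its own mouse, so p-values speak only to the spread among these tumours.

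Each ribosome needs 1 copy of nearly all of these proteins, with the acidic stalk proteins as a known exception, so cells make them in step. Their messages are short, abundant and stable, and most begin with a C and a run of pyrimidines, the 5′ terminal oligopyrimidine (TOP) motif, through which mTOR controls their translation. Levels are given as TPM, a transcript abundance scaled for length and for the library's total, so levels of different genes may be compared within a library. In bulk tumours, fewer cells of a type and less RNA per cell cannot be told apart.

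Melanocyte genes were high in each library, and none of the 10 melanocyte markers was listed at 0. Aoah itself was at 17.9, 22.5, 13.96 and 3.91 TPM in the 4 B16mhgp100 Aoah tumours and at 7.58, 0.890, 2.43 and 1.57 in their Vector tumours, and at 21.8 and 23.7 against 1.49 and 0.750 in B16F10. The library labelled Aoah 4 of B16mhgp100 lay below 1 of its 4 Vector libraries in Aoah. It also stood apart in other lists. Its 12 keratinocyte markers summed to 8694 TPM against 5.45 to 104 in the other 11 libraries, its 12 skeletal muscle markers to 8185 against 46.2 to 1074, its red blood cell markers to 5155 against 388 to 1441, and its melanocyte markers to 8405 against 18560.4 to 34472. Results of B16mhgp100 are therefore given with and without it. In B16F10, Vector 2 held 10.4% of TPM in mitochondrially encoded genes.

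Ribosomal protein genes held 11.03 to 13.3% of all TPM in the Vector tumours and less in the B16F10 Aoah tumours. In B16F10 the share was 12.99 and 12.8% in the Vector tumours and 9.77 and 9.65% in the Aoah tumours, a mean of 12.9% ± 0.139 (SD, n = 2) against 9.71% ± 0.0851 (SD, n = 2). The groups did not overlap, and the gap exceeded the spread within either. In B16mhgp100 the share was 13.3, 11.03, 12.5 and 12.97% in Vector tumours and 11.6, 13.5, 11.2 and 23.96% in Aoah tumours. The first 3 Aoah tumours lay within or just above the Vector range, and Aoah 4 held 23.96%, the highest share of the 12 libraries. The mean difference of Aoah minus Vector was 2.62 percentage points with Aoah 4 and -0.351 percentage points without it. Both subunits moved together: the large subunit held 1.53 to 1.62 times the TPM of the small one in the other 11 libraries and 1.47 times in Aoah 4. Pseudogene names, which can share reads with these genes, held 0.107 to 0.235% of TPM.

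**Figure D1:**
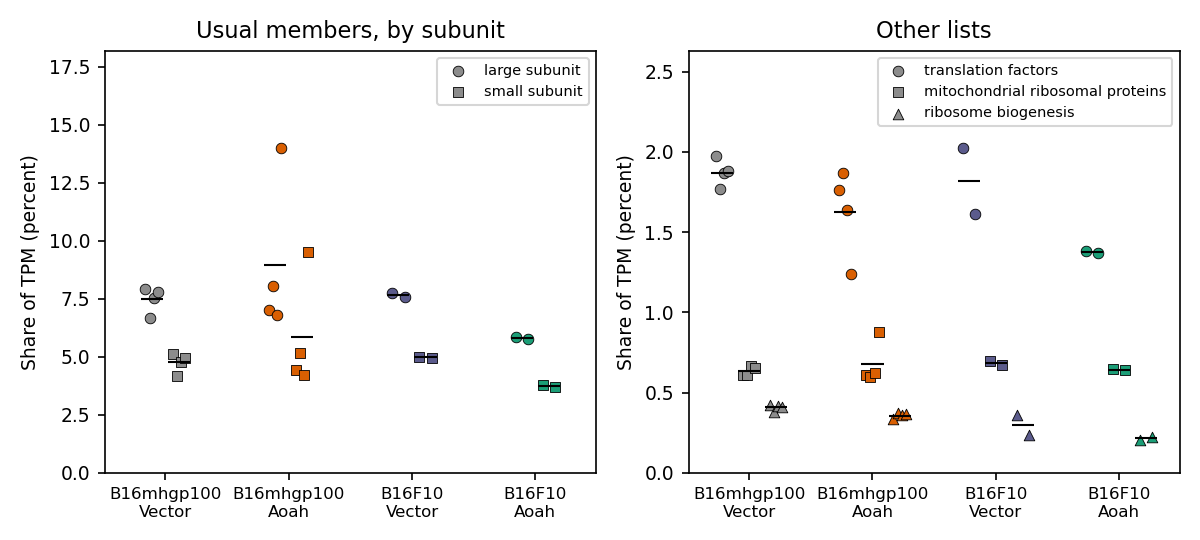
Share of TPM (percent) in each library, by group, for the usual ribosomal protein genes of the large and small subunit (left) and for 3 other gene lists (right); points are libraries and bars are group means. The B16F10 Aoah libraries sit below the B16F10 Vector libraries for both subunits, and 1 B16mhgp100 Aoah library, Aoah 4, sits far above all others.

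Levels of the usual genes spanned an order of magnitude, from a mean of 489 TPM for Rpl17 to 5848 TPM for Rplp1 over the 12 libraries. The 5 highest were Rplp1, Rpl13a, Rpl41, Rpl32 and Rpl18. Rplp1 encodes an acidic protein of the stalk, the flexible arm that recruits elongation factors, and lay at 4411 to 7074 TPM outside Aoah 4. Its partner Rplp2 lay at 857 to 1337 TPM, and Rplp0, which anchors both to the ribosome, at 2180.5 to 3148. So the 3 stalk messages were not at equal levels, and Rplp1 was above Rplp2 in each library. Rpl13a and Rps18 are often used as reference genes in quantitative PCR. Their ranges outside Aoah 4 were 3227 to 5462 and 1614 to 2355 TPM.

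The rank order of the 76 genes was close between most libraries. Spearman's rho between 2 libraries, as a description over 76 genes, was 0.862 to 0.996 for the 55 pairs without Aoah 4 and 0.551 to 0.698 for the 11 pairs with it. Rps2, Rpl7a and Rpl27 varied least within groups, with a pooled SD of log2(TPM + 1) of 0.070, 0.072 and 0.12. Without Aoah 4 their SD was 0.054, 0.059 and 0.099, and other genes, such as Rpl6 at 0.061 and Rps13 at 0.066, varied less than Rpl27. Rpl3l, Rpl39l and Rps4l, copies with few TPM, varied most, at 1.23, 0.90 and 0.77. Among the usual genes the most variable were Rpl37a, Rplp2 and Rpl41, at 0.74, 0.73 and 0.69, and without Aoah 4 their SD was 0.20, 0.10 and 0.16.

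Deviations from group means were shared across the family. The median Pearson r between 2 usual members was 0.84 over 12 libraries, beside 0.17 between any 2 of the 16556 genes kept. Without Aoah 4 these were 0.67 and 0.07, and with TPM rescaled to the total of all other genes, 0.90 and 0.12. All members of a library share its total, its depth and its mix of cells.

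In B16mhgp100, the first comparison asked whether Aoah over-expression changed these genes under anti-PD1. No member passed an adjusted p of 0.05 (limma, Benjamini-Hochberg over 14228 genes, 2-sided). The background was 0%, since no gene of the table passed. Of the 89 members tested, 0 had an unadjusted p under 0.05, beside 1.11% of all genes with the higher and 1.35% with the lower sign. Differences are given as Aoah minus Vector in log2(TPM + 1). With all 8 tumours, 73 of 89 members lay above 0 with a median of 0.20, beside 30% of all genes and a median of -0.20. Without Aoah 4, 66 of 89 lay below 0 with a median of -0.05, beside 55.4% of all genes and a median of -0.02, and again no member was called, beside 0.00703% of all genes.

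Rpl41, which encodes the smallest ribosomal protein, shows what the single library did. It was at 3161, 2492, 2616 and 2875 TPM in the Vector tumours and at 2995, 3515, 2911 and 14309.7 in the Aoah tumours. The first 3 Aoah tumours overlapped the Vector range and the fourth lay far above it. The difference was 0.72 ± 0.47 (SE, adjusted p = 0.694 by limma) and 0.17 ± 0.11 without Aoah 4 (adjusted p = 0.707 by limma). Rps14, a small subunit protein, was at 2758, 2414, 2356 and 2505 TPM in Vector and 2702, 2817, 2634 and 8292 in Aoah tumours. Its difference of 0.52 became 0.12 without Aoah 4. Rps27rt, a retrogene copy of Rps27, was at 78.4, 41.8, 67.1 and 61.7 TPM against 56.8, 76.6, 92.96 and 143, with overlapping groups.

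Lower values in the Aoah tumours were seen for Rpl7l1, Rpl4 and Rpl3, also without a call. Rpl7l1, a copy of Rpl7, was at 122, 96.8, 123 and 107 TPM in Vector and 96.4, 96.7, 92.1 and 32.5 in Aoah tumours. Each Aoah tumour lay below each Vector tumour, which held for 1 of 89 members, beside 5.15% of all genes. The difference was -0.61 ± 0.35 (SE), and -0.23 ± 0.10 without Aoah 4 (unadjusted p = 0.0446, adjusted p = 0.605 by limma). Rpl4, a protein of the exit tunnel wall, was at 1149, 856, 1071 and 1077 TPM against 822, 1076, 791 and 518. Rpl3, a protein near the peptidyl transferase centre, was at 2308, 2102, 2116 and 2143 against 2106, 2122, 1896 and 1234. In both, Aoah 4 was the lowest library.

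The authors' deposited table for this model gives an adjusted p for 68 members. It called none of them, with a median log2 fold change of 0.53 and 63 above 0, beside 0.0146% of its tested genes called. The members it lists without an adjusted p ran from 0.82 for Rpl36al to 3.02 for Rpl3l, apart from Rpl10l at -0.01. Rplp2 and Rpl41, both at 1.63, were among them. So the median and the count of calls leave out many of the highest fold changes.

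Within Aoah 4, the family did not move as a block. Of the 76 usual genes, 63 lay above all 11 other libraries, 5 below all of them and 8 within their range. Of all 16556 genes kept, 13.8% lay above the other libraries. Rplp2 and Rpl41 were at 5.06 and 4.98 times the median of the other libraries, Rpl37a at 4.75 times and Rps21 at 4.03 times. Among the low genes, Rpl3, Rpl4, Rps3 and Rpl10 were at 0.587, 0.605, 0.608 and 0.689 times. Rps3, a protein at the messenger's entry channel, was at 1275 TPM against 1554 to 2254 elsewhere. Rpl10, which completes the large subunit before the subunits join, was at 1415 against 1545 to 2355.

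The order moved with the length of the coding part. Split into 4 bins of 19 genes, the shortest, at 75 to 369 bases, had a median ratio of Aoah 4 to the median of the others of 2.85. In the following bins it was 2.19 (375 to 456 bases), 1.65 (468 to 612 bases) and 1.13 (624 to 1257 bases). Spearman's rho of the log2 deviation with coding length was -0.67 over the 76 genes and -0.33 over other genes. With the length of the whole transcript in place of the coding part it was -0.47, and coding length was preferred after both had been seen. Over the other 11 libraries rho lay between -0.319 (B16F10 Vector 2) and 0.582 (B16mhgp100 Vector 2). Rpl10 was low at 642 bases. The skin, muscle and blood genes of Aoah 4 move with these values, and RNA quality is not given in the sources used here. Their part in the pattern was not tested.

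**Figure D2:**
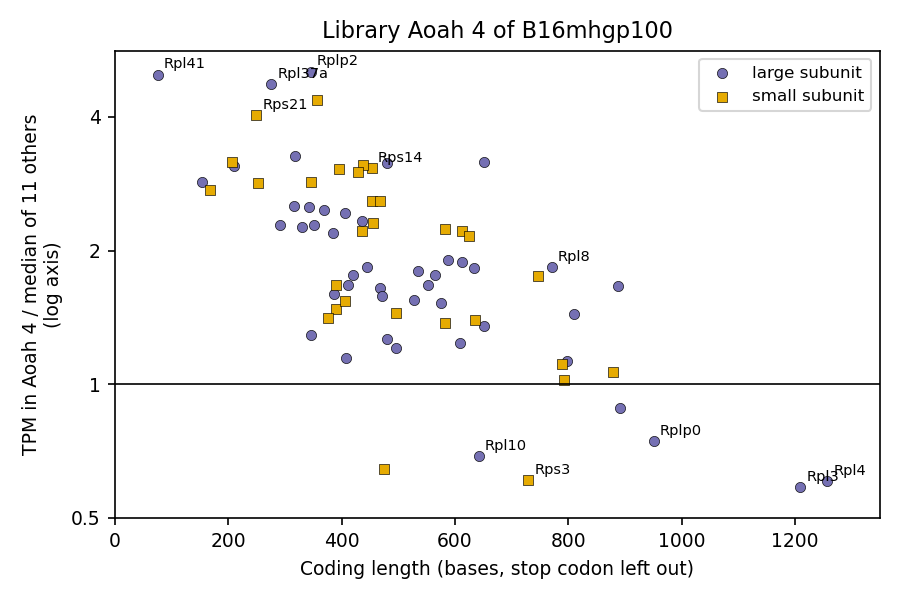
Ratio of TPM in the B16mhgp100 library Aoah 4 to the median of the 11 other libraries (log axis) against coding length in bases, for the 76 usual genes; circles are large and squares small subunit genes, and the line marks a ratio of 1. Short coding parts such as Rpl41 and Rplp2 sit near 5, and Rpl3 and Rpl4, the longest named, sit near 0.6.

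The shortest of these coding parts is shown whole, from GENCODE M21 without its stop codon, to make its length and composition visible. Capitals mark G and C, which make up 53.3% of its 75 bases.
Rpl41: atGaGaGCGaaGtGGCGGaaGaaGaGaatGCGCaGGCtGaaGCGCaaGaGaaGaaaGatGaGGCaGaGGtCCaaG

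In B16F10, the comparison of Aoah with Vector tumours under anti-PD1 with anti-CTLA4 gave lower values across most of the family. No member passed the adjusted threshold (0 of 88; 8 of 14533 genes were called lower, a background of 0.055%, and 50 in either direction, 0.344%). At an unadjusted p under 0.05, 56 of 88 members were lower and 0 higher, beside 7.28% and 10.9% of all genes. The median difference was -0.56, beside 0.02 for all genes, and 79 of 88 members lay below 0, beside 48.4% of all genes. For 72 of 88 both Aoah tumours lay below both Vector tumours, beside 22.6% of all genes, and for 2 both lay above, beside 28% of all genes. Of the 76 usual genes, 11 differed by at least 1 log2 unit downward and 45 by at least 0.5. The median was -0.59 over the 46 large and -0.56 over the 30 small subunit genes.

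The smallest p-values belonged to Rps3a1, Rps27a and Rpl35. Rps3a1, a protein of the small subunit's platform, was at 2049.9 and 1895 TPM in the Vector tumours and 800.2 and 906 in the Aoah tumours, a difference of -1.21 ± 0.15 (SE, adjusted p = 0.0571 by limma). Rps27a, which is made as a fusion with ubiquitin, was at 1125 and 1079.6 TPM against 514 and 551, a difference of -1.05 ± 0.14 (SE, adjusted p = 0.0585 by limma). Rpl35, at the rim of the exit tunnel, was at 827 and 783 TPM against 394 and 413, a difference of -0.996 ± 0.14 (SE, adjusted p = 0.0616 by limma). In each of the 3, both Aoah tumours lay below both Vector tumours. They were picked for the smallest p, which favours a wide gap relative to the spread, and none was called.

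The largest differences were in Rpl21, Rpl17, Rpl26, Rpl4 and Rps6, named here after their values had been seen. Rpl21 was at 580.4 and 444 TPM in Vector and 172 and 214 in Aoah tumours, a difference of -1.40 ± 0.20 (SE). Rpl17, which lines the exit tunnel, was at 569.6 and 434 against 185 and 222. Rpl26 was at 1372 and 1081 against 478 and 533. All of these groups lay apart. Rps6, the target of S6 kinases, was at 1476 and 1011 against 468 and 595, and Rpl4 at 1272 and 751 against 374 and 451. In these last 2 genes the Vector tumours differed widely from each other, with Vector 2 the lower. Several of these genes have many processed pseudogenes, and the sharing of reads with them makes single values less certain.

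The particle of 5S ribosomal RNA carries Rpl5 and Rpl11, which also bind the p53 regulator Mdm2. Rpl5 was at 963 and 622 TPM in Vector and 341 and 403 in Aoah tumours. Rpl11 was at 1442 and 1378 against 855 and 943. Both were lower in both Aoah tumours, Rpl5 by more.

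A few genes did not follow the family. Rplp2, of the stalk, was at 951 and 1127 TPM in Vector and 1337 and 1253 in Aoah tumours, a difference of 0.32 ± 0.15 (SE, adjusted p = 0.339 by limma). Rpl27 was at 2539 and 3027 against 3482 and 3074, and Rps14 at 2314 and 3107 against 3721 and 3099.7. Only in Rps14 did the groups overlap, and none of the 3 was called. Rplp1 was at 5682 and 7074 against 5634 and 5114 and Rplp0 at 2571 and 2409 against 2193 and 2180.5, so among the stalk genes Rplp2 was higher in the Aoah tumours while Rplp0 was lower, neither with a call. The reference gene Rpl13a was at 4199 and 4575 against 3227 and 3292 and Rps18 at 2296 and 2355 against 2016 and 1921, lower in both Aoah tumours.

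**Figure D3:**
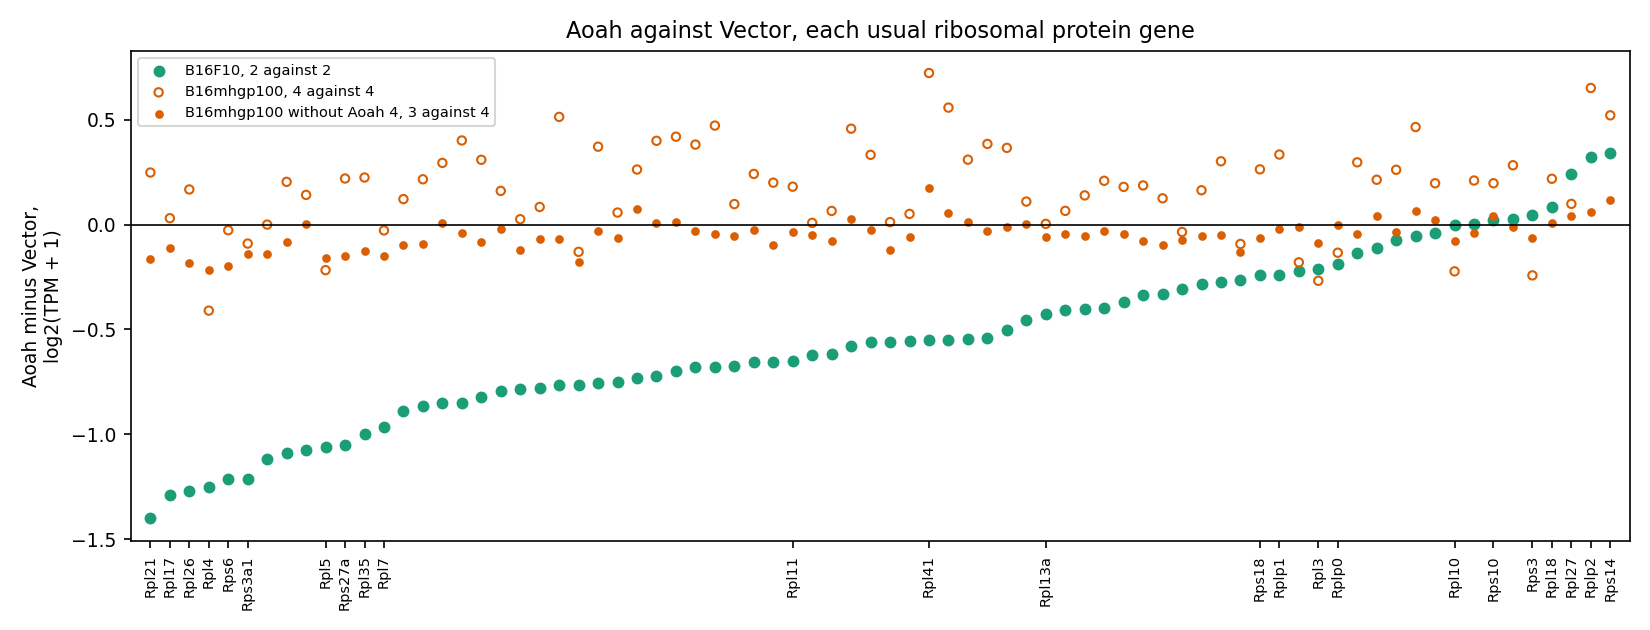
Difference of Aoah minus Vector in log2(TPM + 1) for each of the 76 usual genes, ordered by the B16F10 difference (filled green), with some genes named on the axis; open orange circles are B16mhgp100 with all 8 tumours and small filled orange ones without Aoah 4. The B16F10 values run from -1.40 for Rpl21 to 0.34 for Rps14, and the B16mhgp100 values without Aoah 4 stay between -0.22 and 0.17.

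The number of calls in B16F10 depended on the setting. Leaving out 1 library leaves its arm with 1 library, whose spread is assumed to equal that of the other arm's pair. Members were called with either Vector library left out, but not with either Aoah library left out. The members' median difference was -0.61 without Vector 2, -0.52 without Vector 1, -0.56 without Aoah 1 and -0.60 without Aoah 2. The authors' deposited table called 37 of its 87 tested members lower and 0 higher, beside 3.88% of its genes lower and 8.53% in either direction. In the authors' deposited table the median log2 fold change of these members was -0.60, with 82 below 0, and Rpl21 was at -1.42 with an adjusted p of 4.72e-09.

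Cell markers moved with this contrast. The 10 T cell markers summed to 20.3 and 8.29 TPM in the Vector and 86.2 and 103 in the Aoah tumours, the 10 macrophage markers to 716 and 655 against 1179 and 1110.4, and the melanocyte markers to 22343 and 26126 against 34472 and 33253. Mitochondrially encoded genes held 4.96 and 10.4% against 6.38 and 5.95%. Their part in the result was not tested. With mitochondrially encoded genes left out of the total, the ribosomal protein share was 13.7 and 14.3% in Vector and 10.4 and 10.3% in Aoah tumours.

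The size of the B16F10 difference varied with base composition. Over the 76 usual genes, Spearman's rho of the difference with the percentage of G and C in the coding part was 0.61, and over 12033 other genes it was 0.37. In 4 bins of 19 genes each, from the lowest GC (44.9 to 49.7%) to the highest (55.9 to 61.6%), the median difference was -0.78, -0.68, -0.41 and -0.26. Other genes in the same 4 ranges had medians of -0.14, -0.00, 0.11 and 0.23. So the members' median lay below that of other genes of like composition in each bin, and both medians were higher at higher GC. All 19 genes of each of the lower 2 bins were below 0, and 15 of 19 in each of the upper 2. With GC of the whole transcript rho was 0.56, with GC of the last codon positions 0.33, and the coding part was chosen after all 3 had been seen. After a trend with coding GC and length had been removed across all genes, the members' median was -0.53. In that fit 12 of 82 members were called, all lower, beside 320 of all genes in either direction. It kept only genes with a coding length and GC, so its total is below 14533.

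**Figure D4:**
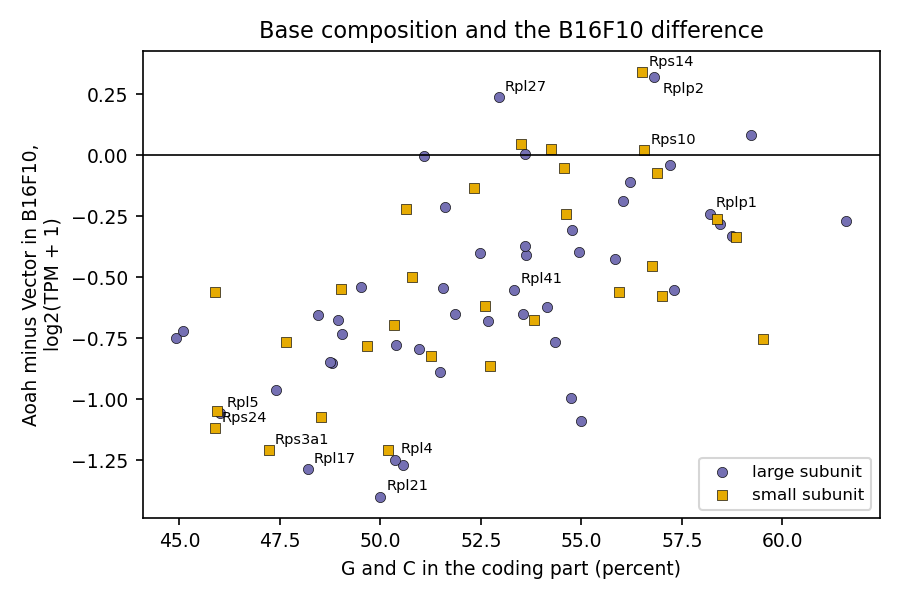
B16F10 difference of Aoah minus Vector in log2(TPM + 1) against the percentage of G and C in the coding part, for the 76 usual genes; circles are large and squares small subunit genes, and the line marks no difference. The 38 genes of the lower 2 GC bins all lie under the line, and the 8 genes above it, such as Rps14 and Rplp2, lie in the upper 2 bins.

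The first 60 coding bases, from GENCODE M21, are shown for the 3 members with the most negative and the 3 with the most positive B16F10 difference, leaving out genes whose sequence is not reported here. Capitals mark G and C. Over the whole coding part, GC was 50.0%, 50.6% and 50.4% in Rpl21, Rpl26 and Rpl4, and 56.8%, 52.9% and 59.2% in Rplp2, Rpl27 and Rpl18.
Rpl21: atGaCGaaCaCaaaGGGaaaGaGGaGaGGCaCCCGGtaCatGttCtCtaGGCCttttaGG
Rpl26: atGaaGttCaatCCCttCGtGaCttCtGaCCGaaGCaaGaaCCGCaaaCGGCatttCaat
Rpl4: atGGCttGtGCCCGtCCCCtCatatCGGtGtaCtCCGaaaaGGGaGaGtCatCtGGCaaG
Rplp2: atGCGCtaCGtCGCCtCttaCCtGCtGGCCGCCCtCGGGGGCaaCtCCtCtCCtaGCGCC
Rpl27: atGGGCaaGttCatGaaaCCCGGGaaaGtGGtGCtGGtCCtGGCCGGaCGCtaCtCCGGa
Rpl18: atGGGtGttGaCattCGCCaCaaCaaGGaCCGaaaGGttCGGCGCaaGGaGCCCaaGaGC

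The TOP motif was looked for as a run of at least 8 letters that are each C or T, on the gene's own strand, within 15 bases on either side of the annotated start (RefSeq, GRCm38.p6). Of 68 members with an entry, 29 held such a run (42.6%), beside 13.9% of 27025 genes. Window and length were chosen after 15 combinations had been seen, and the members' share was the higher one in all 15, from 16.2% beside 4.84% to 60.3% beside 32.7%. The B16F10 difference had a median of -0.52 in the 28 tested members with the run and -0.65 in the 36 without. Annotated starts can lie some bases off the true start, so no run in the window says nothing of the message itself. The windows of 6 members with a run and 3 without are shown, since both kinds include genes with large and with small differences. Capitals mark the longest run.
Rps6 (chr4:86857353-86857382, reverse strand): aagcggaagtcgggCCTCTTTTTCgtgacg
Rpl4 (chr9:64173372-64173401, forward strand): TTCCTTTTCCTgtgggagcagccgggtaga
Rpl13a (chr7:45128731-45128760, reverse strand): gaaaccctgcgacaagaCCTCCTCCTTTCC
Rps18 (chr17:33955651-33955680, reverse strand): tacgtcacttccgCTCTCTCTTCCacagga
Rps10 (chr17:27635230-27635259, reverse strand): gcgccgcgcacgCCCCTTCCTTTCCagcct
Rplp2 (chr7:141447636-141447665, forward strand): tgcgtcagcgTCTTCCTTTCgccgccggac
Rpl26 (chr11:68901551-68901580, forward strand): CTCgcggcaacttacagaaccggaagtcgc
Rps3a1 (chr3:86142654-86142683, reverse strand): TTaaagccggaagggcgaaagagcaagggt
Rpl27 (chr11:101442230-101442259, forward strand): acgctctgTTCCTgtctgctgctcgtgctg
Rps6 and Rpl4, with runs of 10 and 11 letters, were among the genes with the largest differences in B16F10, and Rplp2 and Rps10, with runs of 10 and 13, were at 0.32 and 0.02.

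An interaction term over 12 libraries, B16mhgp100 minus B16F10, tested whether the Aoah difference itself depended on the model. No member passed (0 of 90), beside 0.0302% of all 16556 genes. The median was 0.80, beside -0.16 for all genes, 85 of 90 members were above 0, beside 38.5% of all genes, and 27 had an unadjusted p under 0.05 with the higher sign, beside 2.25% of all genes. Without Aoah 4 the median was 0.56, beside -0.01, 49 members had such a p, beside 5.27%, and still none passed, beside 0.272%. The smallest p-values were those of Rps3a1, Rps25 and Rpl17. Rps3a1, at 2054, 1558, 1907 and 1919.9 TPM in the B16mhgp100 Vector and 1539, 2023, 1512 and 1935 in the Aoah tumours, had an interaction of 1.12 ± 0.26 (SE, adjusted p = 0.341 by limma), and without Aoah 4 of 1.07 ± 0.21 (SE, adjusted p = 0.0965 by limma). Rps3, Rpl7l1 and Rpl10 lay on the other side of 0, at -0.29, -0.51 and -0.22. A difference between the models in the Aoah response was not shown for any single member.

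Between the models, 7 of 90 members were called higher in B16mhgp100 than in B16F10, beside 3.71% of all genes, and 0 lower, beside 3.66%. They were Rpl5, Rpl7, Rps4x, Rpl12, Rps24, Rpl17 and Rpl31. The contrast averages the Vector and Aoah tumours of each model, so the low B16F10 Aoah tumours enter it. Mean Rpl17 was 546 TPM in B16mhgp100 against 502 in B16F10 in Vector tumours, and 568 against 204 in Aoah tumours. The family's mean share was 12.4% against 12.9% in Vector tumours, and 15.1% (with Aoah 4) against 9.71% in Aoah tumours. The Vector tumours alone were not tested. Rpl5 differed by 0.74 ± 0.16 (SE, adjusted p = 0.0174 by limma), from 988, 829, 997 and 1053 TPM in Vector and 809, 1057, 749.6 and 734 in Aoah tumours of B16mhgp100. Rpl7 differed by 0.68 ± 0.15 (SE, adjusted p = 0.0178 by limma), with 1222, 927, 1139 and 1131 TPM in Vector tumours and 965, 1138, 884 and 1390.2 in Aoah tumours of B16mhgp100. In B16F10 it was at 1033 and 871 in Vector tumours and 466 and 507 in Aoah tumours. The models overlapped in both genes: B16F10 Vector 1 lay within the B16mhgp100 range, and Vector 2 and both Aoah tumours of B16F10 lay below it. On the other side Rps10, a protein of the small subunit's head, was at 1773, 1530.0, 1566 and 1602 TPM in Vector tumours and 1657, 1782, 1549 and 2566 in Aoah tumours of B16mhgp100. In B16F10 it was at 2096 and 2652 in Vector tumours and 2548 and 2247 in Aoah tumours, and the models differed by -0.46 ± 0.15 (SE, adjusted p = 0.0946 by limma). Rpl27 lay on the same side, at -0.33.

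These calls rested on few libraries. Without Aoah 4, 33 members were called higher and 6 lower, beside 20.3% and 11.6% of all genes. The calls did not hold without B16F10 Vector 2, Aoah 1 or Aoah 2, each of which leaves 1 library in its group. Without B16mhgp100 Aoah 2 or Vector 1, 3 or 4, 2 members were called. Beside them, 915, 874, 772 and 755 of all 16556 genes were called in either direction. The model contrast shares all libraries with the 2 Aoah contrasts.

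Most copies lay far below the usual genes in level, with Rpl36al as an exception. Rpl36al exceeded its partner Rpl36a in each library, at 173% of it in Aoah 4 and 191 to 257% elsewhere. Rpl22l1 was at 32.5, 27.9, 26.5 and 30.1% of Rpl22 in B16mhgp100 Vector tumours, and 34.9, 32.05, 21.6 and 35.6% in their Aoah tumours. In B16F10 it was at 38.7 and 51.3% in Vector tumours and 50.7 and 34.7% in Aoah tumours. Rps27l, a target of p53, was at 12.3% of Rps27 in Aoah 4 and 16.9 to 31.8% elsewhere. Rps3a2, Rpl6l, Rpl37rt and Rps27rt are duplicates that reached at most 12.1% of their partners, and sharing of reads makes them uncertain.

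Rpl7l1 was high relative to Rpl7 in the B16F10 Aoah tumours. As a percentage of Rpl7 it was at 20.2 and 20.6% in the B16F10 Aoah tumours and 13.3 and 9.42% in their Vector tumours. In B16mhgp100 it was at 9.98, 10.4, 10.8 and 9.47% in Vector and 9.99, 8.49, 10.4 and 2.34% in Aoah tumours, the last of these being Aoah 4. Rpl7l1 itself was at 137 and 82.1 TPM in B16F10 Vector and 94.3 and 104 in Aoah tumours, with overlapping groups, so the higher ratio came with lower Rpl7. A higher ratio was not particular to this copy. Rps3a2 was at 2.78 and 2.73% of Rps3a1 in the B16F10 Aoah tumours and 1.98 and 2.12% in their Vector tumours. Rpl6l and Rpl39l went the other way relative to Rpl6 and Rpl39.

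Rpl3l, the copy known from heart and skeletal muscle, was at 14.6 TPM in Aoah 4 and 0 to 2.68 TPM elsewhere, which is 1.18% of Rpl3 beside 0 to 0.116%. It was highest in the library with the highest skeletal muscle marker sum, and second highest in B16mhgp100 Vector 1, at 2.68 TPM. That library had a muscle sum of 1074 TPM. The part of muscle in these values was not tested. Rpl39l and Rpl10l are known from the testis. Rpl39l lay at 0 to 2.65 TPM outside Aoah 4, at 6.97 in it, and Rpl10l was listed at 0 in 10 of 12 libraries. Rps4l, Rps3a3 and Rpl32l were between 0 and 8.01 TPM, and Rps23rg1 was at or below 0.35. Rps19bp1, which encodes a binding partner of Rps19 and no ribosomal protein, was at 51.5 to 70.7 TPM outside Aoah 4 and 92.4 in it.

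**Figure D5:**
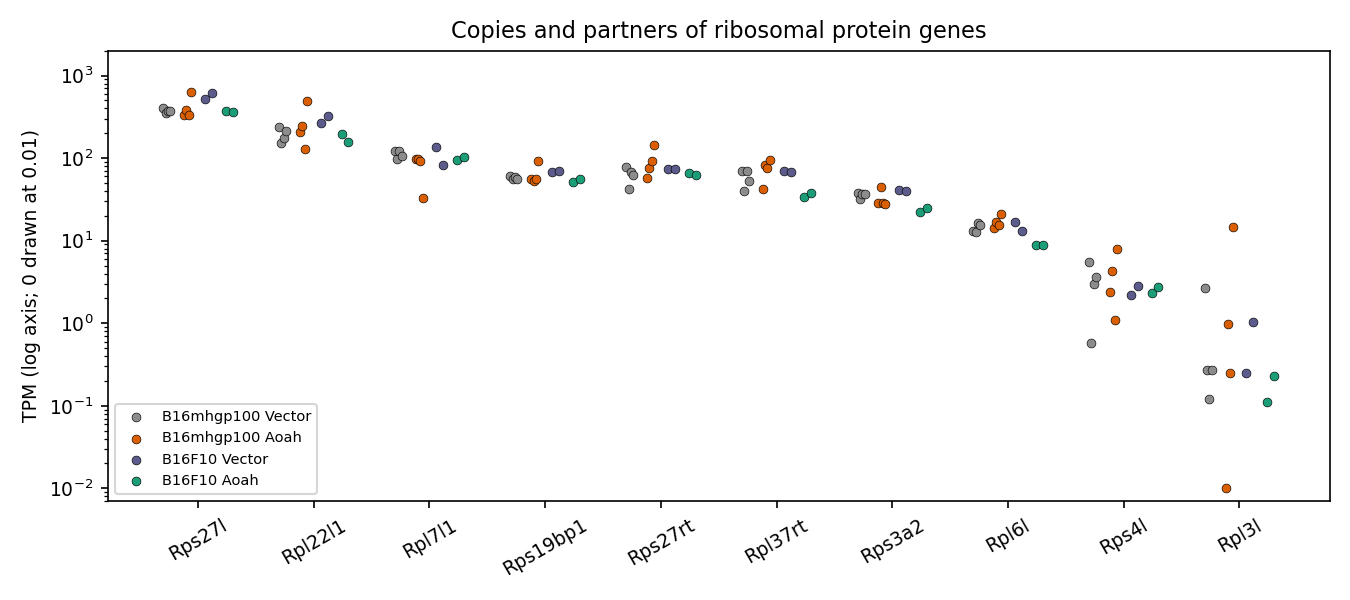
TPM of 10 copies and partners (log axis, with 0 drawn at 0.01) in each of the 12 libraries, coloured by group. Rps27l and Rpl22l1 lie highest, Rpl3l lies under 3 TPM apart from 14.6 in B16mhgp100 Aoah 4, and Rpl7l1 is lowest in the same library, at 32.5.

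Genes that work beside the ribosomal proteins had median differences in B16F10 that moved with 1 Vector library. The list of translation factors holds 15 genes, whose messages often carry the TOP motif too. Some of them, such as Nap1l1 and Hnrnpa1, are not translation factors themselves. None of the 15 was called, and their median difference was -0.27. At an unadjusted p under 0.05, 5 were lower and 2 higher, beside the 7.28% and 10.9% of all genes given above. Without Vector 2 their median was -0.44, with 8 called lower and 3 higher, beside 8.66% and 7.81% of all genes. Without Vector 1 it was -0.23, with 3 called lower and 1 higher, beside 3.98% and 11.7%. Eef1b2, an exchange factor for the elongation factor, was at 971 and 1026 TPM in Vector and 653 and 670.0 in Aoah tumours. Eif3f, an initiation factor subunit, was at 106 and 87.2 against 151 and 149.9. Among 26 ribosome biogenesis genes the median was -0.09, none was called, and 5 were lower and 1 higher at that level. Their median was -0.48 without Vector 2, with 9 called lower and 0 higher, and 0.15 without Vector 1, with 3 called lower and 4 higher, so its sign depended on the library left out. Ncl, for nucleolin, was at 397 and 270.2 against 144 and 146, and Npm1, for nucleophosmin, at 1169 and 689 against 397 and 452. Among 78 mitochondrial ribosomal protein genes the median was -0.07 and none was called. Without Vector 2 it was -0.15, with 14 called lower and 3 higher, and without Vector 1 it was -0.06, with 9 called lower and 5 higher. The members' own median stayed between -0.61 and -0.52 under the alternatives run. Whether these lists differ from the ribosomal protein genes was not tested.

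Between the models, 9 of the 26 biogenesis genes were called higher in B16mhgp100 and 0 lower, beside 3.71% and 3.66% of all genes. The count higher was 16 without Aoah 4, beside 20.3% of all genes, 5 without B16F10 Vector 2, beside 1.35%, and 1 without B16F10 Aoah 1, beside 1.18%. It was 6 without B16F10 Aoah 2, beside 1.41%. Nop58, a box C/D particle protein, was at 139, 106, 135 and 130.4 TPM in Vector tumours and 85.96, 110.1, 108 and 152 in Aoah tumours of B16mhgp100. In B16F10 it was at 105 and 59.8 in Vector tumours and 38.5 and 37.9 in Aoah tumours. Its difference was 1.10 ± 0.19 (SE, adjusted p = 0.00629 by limma). In the list of translation factors 2 genes were called higher, Eif3e and Nap1l1, which is not itself a translation factor. These calls did not hold without B16F10 Aoah 1 or Aoah 2, which leaves 1 library in that group. Without Aoah 4 of B16mhgp100, 6 genes of the list were called higher, and leaving out any other single B16mhgp100 library left 1. Of the mitochondrial ribosomal protein genes 3 were higher and 4 lower, or 3.85% and 5.13%, near the shares of all genes. Without Aoah 4 these were 15 and 21 genes, beside 20.3% and 11.6% of all genes, and without any other 1 library at most 3 in either direction.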

How the data were processed

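The authors deposited expression per library as log2 values of TPM plus a pseudocount of 1, made with RSEM on mm39 per the submitters' processing notes, versions not given in the sources used here. Sequencing depth cannot be read from TPM, and RSEM shares reads between near-identical copies. Back-transformed TPM summed to 992185 to 996590 a library. The authors also deposited a DESeq2 table per model, per the submitters' processing notes, with the mean normalised count as signal, a log2 fold change, a test score and p-values. Its identifiers were named through the gene name table (25784 of 26878 for B16F10 and 29916 of 31267 for B16mhgp100).

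Groups were taken from the titles. Tests used limma 3.58.1 in R 4.3.3 on log2(TPM + 1) with an intensity trend, 2-sided, with Benjamini-Hochberg adjustment over all genes kept and a threshold of 0.05. A gene entered a fit at 1 TPM or more in 4 (B16mhgp100) or 2 libraries (B16F10 and fits of 12). Each model was fitted alone, and the interaction and the model contrast on 12 libraries with 4 group means. Planning allowed for counts, but TPM was found, so the count test was not run. The fit was tested on simulated data. Coding length and GC came from GENCODE M21 (GRCm38), matched by symbol for 85 of 92 members, and serve as properties only, since the build differs. Alternatives were the pseudocount (0.1 and 10), no filter, 2 scalings, array weights, a replicate block and leaving out each library. Removing a GC and length trend and a crossed block were added after seeing the data.

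Members and gene lists were chosen with earlier results of these data known. Named are the 5 highest and 5 lowest members among those kept in the fit of 12 libraries, the 3 with the smallest p per direction and comparison, the 3 most and least variable, the copies with their partners, and the stalk, 5S particle and reference genes. In each other list up to 2 genes with the smallest p were named. Results of some genes are not reported here. Equal replicate numbers were not taken to pair libraries.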

Additional observations from a re-analysis of the deposited data

Results flagged for a closer look

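For the named members, the highest and lowest library of each B16mhgp100 group was compared with the other 3 by its gap over the group's range, against Dixon's 95% limit for 4 samples. Of 106 values and groups, 21 passed. Chance gives about 5% in independent groups, which these are not: members were partly chosen for their spread or p in the same libraries, and share them, so the count is not read against it. Of the 21, 15 belong to Aoah 4, 13 of them high.

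In Aoah 4, the high values were Rplp1 at 12826 TPM, Rpl41 at 14309.7 TPM, Rps14 at 8292 TPM, Rpl32 at 7547 TPM, Rpl18 at 5668 TPM, Rplp2 at 4814 TPM, Rps18 at 4432 TPM, Rps27a at 2788 TPM, Rpl36al at 2663 TPM, Rps19bp1 at 92.4 TPM, Rpl3l at 14.6 TPM and 1.18% of Rpl3, and Rpl10l at 0.09 TPM. The low values were Rps3 at 1275 TPM and Rpl7l1 at 32.5 TPM.

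Elsewhere, B16mhgp100 Vector 1 was high for Rpl3l, at 2.68 TPM and 0.116% of Rpl3, and for Rpl10l, at 0.14 TPM. Vector 2 was low for Rpl36al, at 885 TPM, and Rps3a2, at 31.8 TPM, and Aoah 2 was high for Rps3a2, at 45.0 TPM. The values of Rpl10l lie near 0 and those of Rps3a2 share reads with Rps3a1.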

How the results depend on the processing

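In B16F10 the median difference of the members stayed between -0.61 and -0.52 under the 13 alternatives run, while the number called, 0 in the report, was 3 with median-of-ratios scaling, 4 with array weights, 12 with the GC and length trend removed (131, 115 and 320 of all genes), and 0 to 55 when 1 library was left out (105 to 2394 of all genes). With a replicate block 21 of 88 members were called, and with the crossed pairing 33 (765 and 910 of 14533 genes). Counts of all genes in this section are for either direction. Same-numbered B16F10 libraries deviated with r = -0.108 and differently numbered ones with r = 0.108. With 2 libraries a group these values must mirror each other, so they cannot settle whether the numbers pair libraries. Same-numbered B16mhgp100 libraries had r between -0.289 and 0.0168. The numbers were not taken as pairs in the main fits. The block gave no call in B16mhgp100 or in the interaction and could not be fitted for the contrast of the models. In B16mhgp100 the median was -0.10 with array weights and -0.048 to 0.29 when 1 library was left out (the lowest without Aoah 4), and positive in the other 14 alternatives. No member was called in any of its 16 alternatives or in the 20 of the interaction, whose median was 0.51 with array weights. Between the models the count called was 34 with array weights, 1 with median-of-ratios scaling, 2 with no filter (4655, 2137 and 1154 of all genes), and 0 to 39 when 1 library was left out (417 to 5283 of all genes). The difference in TPM share was -0.351 to 3.91 percentage points in B16mhgp100 when 1 library was left out (the lowest without Aoah 4), and -3.63 in B16F10 with mitochondrially encoded genes out of the total. The cause of these shifts was not tested. Depth per library is unknown, and 2 against 2 libraries cannot go below p = 0.333 in an exact permutation test.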
